A study of Mus musculus with 12 samples.

Results

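The genes described here are 10 genes by which endothelial cells of the brain are recognised, in bulk RNA sequencing of the frontal cortex. They were chosen by name (Vwf, Slc2a1, Tek, Bsg, Cldn5, Pecam1, Flt1, Kdr, Cdh5 and Abcb1a), and all 10 were found among the 14909 genes of the count table. Earlier results of these data were known when the members and the gene lists below were chosen. The tissue came from 5 Upf3b-null mice (KO 1 to 4 and KO 6) and 7 wild-type mice (WT 1 to 7), all C57BL/6 and housed free of pathogens, with 1 library per mouse. No source used here gives the mice's age or sex, the substrain or the form of the null allele. Upf3b is an X-linked gene. Its protein is a factor of nonsense-mediated decay (NMD), by which cells destroy mRNAs with premature stop codons, and the study asked which genes change in the frontal cortex without it.

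Endothelial cells line the blood vessels, and in the brain they form the blood-brain barrier, in which tight junctions seal the cells to one another and transporters carry nutrients in and foreign compounds out. Growth of the vessels and their stability depend on receptors for vascular endothelial growth factor (VEGF) and for the angiopoietins. Most of these genes are markers of the cell type, but Slc2a1 is also found in astrocytes, and Bsg is made by neurons and glia as well. In bulk tissue, fewer endothelial cells and less of an mRNA per cell cannot be told apart.

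The promoters of 3 members are shown because they stand for the different outcomes below: Slc2a1 and Flt1 were higher in KO and Cldn5 did not pass the test. The stretches come from RefSeq (GRCm38.p6, the same assembly as mm10), lie within the 250 bases before the transcription start, and end where the annotated gene begins. Capitals mark GGAA, the core motif of the ETS transcription factors, or its reverse complement, and the TATA box motif TATAAA on either strand.
Slc2a1, chr4:119108495-119108710, plus strand: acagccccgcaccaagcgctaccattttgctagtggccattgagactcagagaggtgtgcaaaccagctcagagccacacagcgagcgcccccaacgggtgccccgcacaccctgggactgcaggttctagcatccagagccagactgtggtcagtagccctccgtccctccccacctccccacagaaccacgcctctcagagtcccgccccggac
Flt1, chr5:147726012-147726261, minus strand: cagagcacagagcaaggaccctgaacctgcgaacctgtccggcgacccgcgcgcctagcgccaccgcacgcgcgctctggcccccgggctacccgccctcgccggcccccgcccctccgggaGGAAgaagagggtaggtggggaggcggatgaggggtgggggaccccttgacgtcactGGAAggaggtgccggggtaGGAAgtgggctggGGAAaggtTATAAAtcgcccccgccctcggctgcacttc
Cldn5, chr16:18776597-18776846, plus strand: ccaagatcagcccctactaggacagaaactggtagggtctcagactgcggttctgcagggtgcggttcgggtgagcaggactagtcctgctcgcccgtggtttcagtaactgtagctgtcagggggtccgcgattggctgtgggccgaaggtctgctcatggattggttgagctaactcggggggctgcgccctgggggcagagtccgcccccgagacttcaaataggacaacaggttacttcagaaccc
Of the 10 members 6 had a promoter entry: Slc2a1, Tek, Cldn5, Flt1, Kdr and Abcb1a. The entry of Abcb1a, at chr5:8566841-8567090, does not adjoin the annotated gene, which begins at chr5:8660077. GGAA was present in 4 of the 6 (Tek, Flt1, Kdr and Abcb1a), against 93.4% of 32851 RefSeq promoters searched over the same length and on both strands. Flt1 had 4 matches, while Slc2a1 and Cldn5 had none in the 250 bases. TATAAA was found in the promoter of Flt1 alone among the 6, against 12.4% of all promoters.

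A second pair of sequences is shown because the missing gene acts in NMD. In GENCODE M21, Slc2a1 and Vwf each had 1 transcript annotated as an NMD target, and the other 8 members had none. Among all tested genes found in the annotation, 26.7% had such a transcript. Each stretch is 30 bases of that transcript, 5′ to 3′, with the premature stop codon in capitals.
Slc2a1-204, stop codon at chr4:119133355-119133357, plus strand: attgcccagtgcTGAagaagcttcgaggga
Vwf-210, stop codon at chr6:125665160-125665162, plus strand: tccagccaacccTGAccaaccctggagaat
Slc2a1-204 lacks exon 5 (163 nt) of the full transcript, and its stop codon lies in exon 5 of its 9 exons, 593 nt before the last exon junction. In Vwf-210, a partial transcript of 19 exons, the stop lies 1208 nt before that junction. Counts were per gene, so these transcripts were not measured apart from the others of their gene.

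The libraries held 4990643 to 6617759 counts in KO and 4684039 to 5425774 in WT. KO 1 was the only KO library inside the WT range of totals, and the other 4 KO libraries were deeper than every WT library. Upf3b was at 1.71 to 3.79 CPM (counts scaled to a common library size) in KO and 33.8 to 40.9 CPM in WT (log2 fold change -3.78 ± 0.13 SE, edgeR quasi-likelihood adjusted p = 7.21e-11), so no library went against its label. Of 14274 genes tested, 2183 were higher in KO and 2050 lower at an adjusted p under 0.05. WT 6 and WT 7 were the closest pair of libraries within a group (chi-square per degree of freedom 1.02, p = 0.0175). This value is close to the spread from counting alone, and every other such pair had a higher one. Whether the pair came from separate mice, as their titles say, was not tested, and both were kept. With WT 6 and WT 7 summed as 1 library, 6 members were higher and 1 lower.

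Among the 10 endothelial genes, 6 were higher in KO cortex than in WT cortex and 1 was lower. The 6 were Vwf, Tek, Kdr, Flt1, Slc2a1 and Pecam1, with log2 fold changes of 0.26 to 0.68, and the lower one was Bsg, at -0.28. Over all genes tested, 15.3% were called higher and 14.4% lower, or 29.7% in either direction. These shares differed with how densely a gene was counted, as given below. The members were chosen with earlier results of these data known, so their share is not independent of the data. The median log2 fold change was 0.27 over the 10 members and 0.034 over all genes tested. All 10 members passed the filter on low counts.

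**Figure D1:**
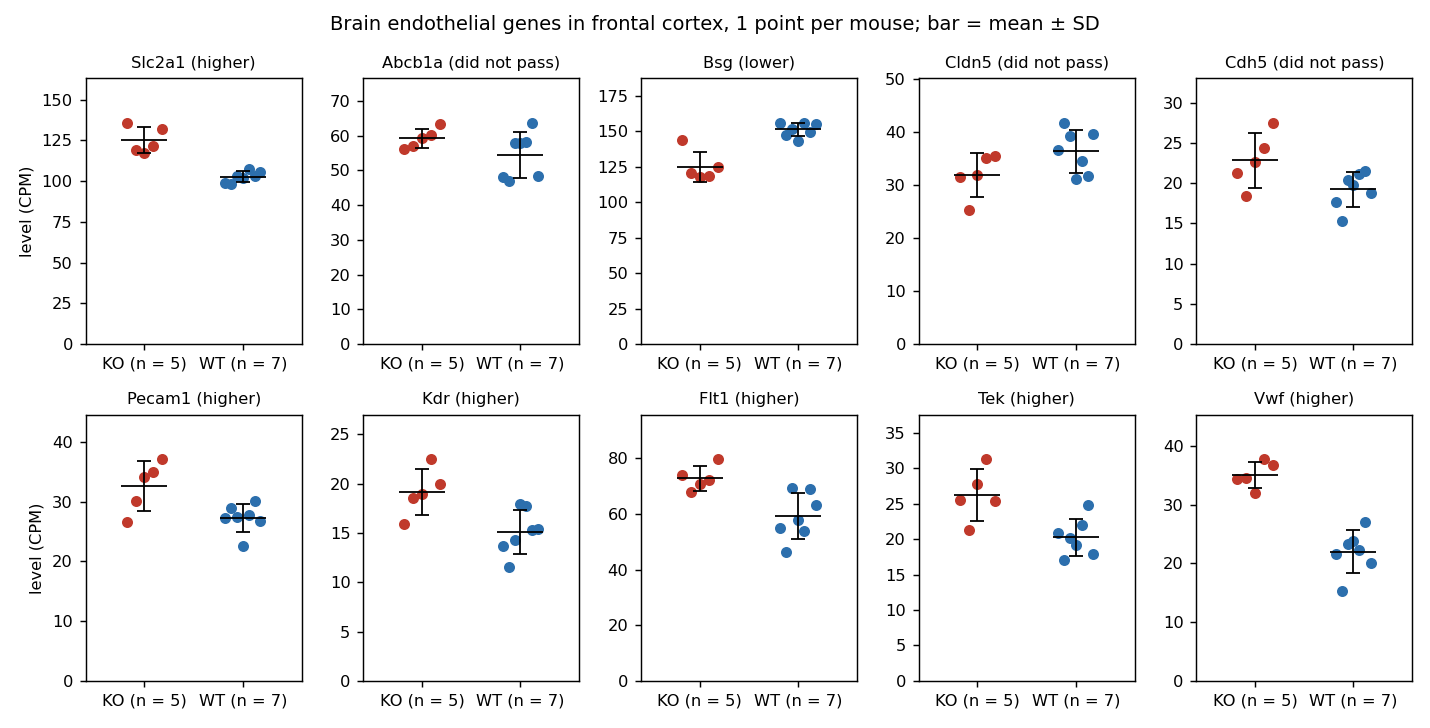
Level in CPM of each of the 10 endothelial genes, 1 point per mouse, KO on the left (n = 5) and WT on the right (n = 7), with bars for the mean ± SD. All KO points lie above all WT points for Slc2a1 and Vwf, and 4 of 5 KO points lie below the WT points for Bsg.

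The barrier's main glucose carrier, GLUT1, is encoded by Slc2a1 (chr4:119108711-119137983, plus strand). Its level was 136, 119, 117, 122 and 132 CPM in KO 1, 2, 3, 4 and 6, while in WT the lowest was 98.5, the median 103 and the highest 107 CPM. Every KO mouse lay above every WT mouse, and the most shallowly sequenced KO library, KO 1, had the highest value. The means were 125 ± 8.21 CPM in KO (SD, n = 5) and 103 ± 3.28 CPM in WT (SD, n = 7). This was a rise of 21.7% (log2 fold change 0.28 ± 0.04 SE, edgeR adjusted p = 5.97e-04). An antisense gene, Gm12868, overlaps its exons, and without a stated strand setting reads from the pair cannot be told apart.

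Basigin, encoded by Bsg (chr10:79704491-79711969, plus strand), is a membrane glycoprotein that escorts monocarboxylate transporters to the cell surface. It was at 144, 121, 118, 118 and 125 CPM in KO 1, 2, 3, 4 and 6, against a lowest value of 143, a median of 152 and a highest of 156 CPM in WT. The 4 deeper KO libraries all lay below WT, and KO 1 lay inside the WT range. The log2 fold change was -0.28 ± 0.05 (SE, edgeR adjusted p = 0.00117), a fall to 125 ± 10.8 CPM in KO (SD, n = 5), against 151 ± 4.89 CPM in WT (SD, n = 7).

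Abcb1a (chr5:8660077-8748575, plus strand) encodes the efflux pump P-glycoprotein, which keeps many drugs out of the brain. Its levels ran from 56.2 to 63.2 CPM in KO and from 46.8 to 63.7 CPM in WT, and the groups overlapped. The log2 fold change of 0.12 ± 0.07 (SE) did not pass (edgeR adjusted p = 0.219). A gene of unknown status on the opposite strand, Gm42686, overlaps its exons. Its close paralog Abcb1b was counted apart, at 19.1 ± 1.24 CPM in KO (SD, n = 5) and 17.7 ± 0.744 CPM in WT (SD, n = 7), and how reads shared by the pair were assigned is not given in the sources used here.

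Of the junction and adhesion genes, Pecam1 rose, and Cldn5 and Cdh5 did not pass. Pecam1 (chr11:106654217-106750628, minus strand), an adhesion molecule at contacts between endothelial cells, was at 26.6, 30.0, 34.2, 34.9 and 37.1 CPM in KO 1, 2, 3, 4 and 6, while WT ran from 22.6 through a median of 27.4 to 30.1 CPM. KO 3, 4 and 6 lay above all WT mice, and KO 1 and KO 2 lay inside the WT range. The log2 fold change was 0.26 ± 0.09 (SE, edgeR adjusted p = 0.0325). The call was lost in 7 of the 12 fits that left out 1 library (KO 3, 4 or 6, or WT 1, 3, 4 or 7), at adjusted p up to 0.0917, and with the DESeq2 Wald test (adjusted p = 0.0563).

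Cldn5 (chr16:18776847-18778262, plus strand, a gene of 1 exon) encodes claudin-5, the main sealing protein of the barrier's tight junctions. It was at 31.5, 25.2, 31.9, 35.1 and 35.4 CPM in KO 1, 2, 3, 4 and 6, and WT ran from 31.2 through a median of 36.6 to 41.7 CPM. Only KO 2 lay below all WT mice. The log2 fold change of -0.19 ± 0.09 (SE) did not pass (edgeR adjusted p = 0.137), and it was negative in every fit run. Cdh5 (chr8:104101625-104144511, plus strand), the VE-cadherin of adherens junctions, was at 18.4 to 27.5 CPM in KO and 15.3 to 21.5 CPM in WT. Its log2 fold change of 0.25 ± 0.11 (SE) missed the threshold (edgeR adjusted p = 0.0856) and passed without KO 2 (0.32, adjusted p = 0.0286).

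All 3 receptor genes among the members rose. Flt1 (chr5:147561604-147726011, minus strand) encodes VEGF receptor 1, which binds VEGF tightly and signals weakly. It was at 73.8, 67.8, 70.5, 72.0 and 79.5 CPM in KO 1, 2, 3, 4 and 6, while WT ran from 46.4 through a median of 57.8 to 69.1 CPM. KO mice were above all WT mice except KO 2, and the rise was 23.0% (log2 fold change 0.30 ± 0.08 SE, edgeR adjusted p = 0.0156).

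Kdr (chr5:75932827-75978458, minus strand) encodes VEGF receptor 2, the main signalling receptor for VEGF. It was at 15.95, 18.5, 18.9, 22.5 and 19.9 CPM in KO 1, 2, 3, 4 and 6, while WT ran from 11.5 through a median of 15.3 to 17.9 CPM. KO 1 was inside the WT range and the other 4 KO mice were above it, with a log2 fold change of 0.35 ± 0.11 (SE, edgeR adjusted p = 0.0308). The call was lost without KO 3, 4 or 6 or WT 1, 2 or 3, at adjusted p up to 0.0993.

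Tek (chr4:94739289-94874976, plus strand) encodes Tie2, the receptor for the angiopoietins. It was at 25.6, 21.3, 27.8, 31.2 and 25.4 CPM in KO 1, 2, 3, 4 and 6, while WT ran from 17.0 through a median of 20.1 to 24.7 CPM. Again 4 of the 5 KO mice lay above WT and KO 2 lay inside its range. The log2 fold change was 0.38 ± 0.10 (SE, edgeR adjusted p = 0.0137).

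Vwf rose most of the 10. It lies at chr6:125546774-125686679 on the plus strand and encodes von Willebrand factor, the clotting glycoprotein that endothelial cells store and secrete. It was at 34.4, 34.5, 31.9, 37.7 and 36.7 CPM in KO 1, 2, 3, 4 and 6, while WT ran from 15.3 through a median of 22.3 to 27.1 CPM. The groups did not overlap. The rise was 60.0% (log2 fold change 0.68 ± 0.10 SE, edgeR adjusted p = 5.23e-04), and it passed in all 12 fits that left out 1 library, at log2 fold changes of 0.60 to 0.73. Slc2a1 also passed in all 12, at 0.25 to 0.31. Among all genes tested, 5.84% lay above WT in KO without overlap, as these 2 members did, and 4.8% lay below, as no member did.

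Per kilobase of exon, the 10 genes spanned a wide range of levels. In KO the order was Bsg (77.7 CPM per kb), Slc2a1 (38.4), Cldn5 (22.5), Abcb1a (11.8), Flt1 (10.6), Pecam1 (9.46), Cdh5 (5.71), Tek (5.58), Vwf (3.97) and Kdr (3.23 CPM per kb). In WT it was Bsg (94.1 CPM per kb), Slc2a1 (31.5), Cldn5 (25.7), Abcb1a (10.9), Flt1 (8.58), Pecam1 (7.92), Cdh5 (4.81), Tek (4.31), Kdr (2.55) and Vwf (2.48 CPM per kb). Vwf and Kdr exchanged places, but in WT their levels lay within their SDs of 0.414 and 0.381 CPM per kb. Pecam1 and Flt1, and Tek and Cdh5, were also within their spread in both groups.

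Across all genes, the fold change varied with the count per base of exon, and this touches the members. When genes were ordered by that density and cut into 10 bins, the sparsest bin had a median log2 fold change of 0.25 and the densest, bin 10, of -0.18. Slc2a1 lay in bin 9 (0.187 counts per base), where the median was -0.088 and 2.53% of genes were called higher. Bsg, the most densely counted member, lay in bin 10 (0.464 counts per base), where 67.6% of genes were called lower. Vwf and Kdr lay in bin 2, where the median was 0.20 and 20.6% of genes were called higher. Tek and Cdh5 lay in bin 3, Pecam1 and Flt1 in bin 4 and Abcb1a in bin 5. In bins 3, 4 and 5 the shares of genes called higher were 21.6%, 26.3% and 23.9%. Cldn5 lay in bin 7, where the median was 0.018, 0.21 above its own fold change.

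**Figure D2:**
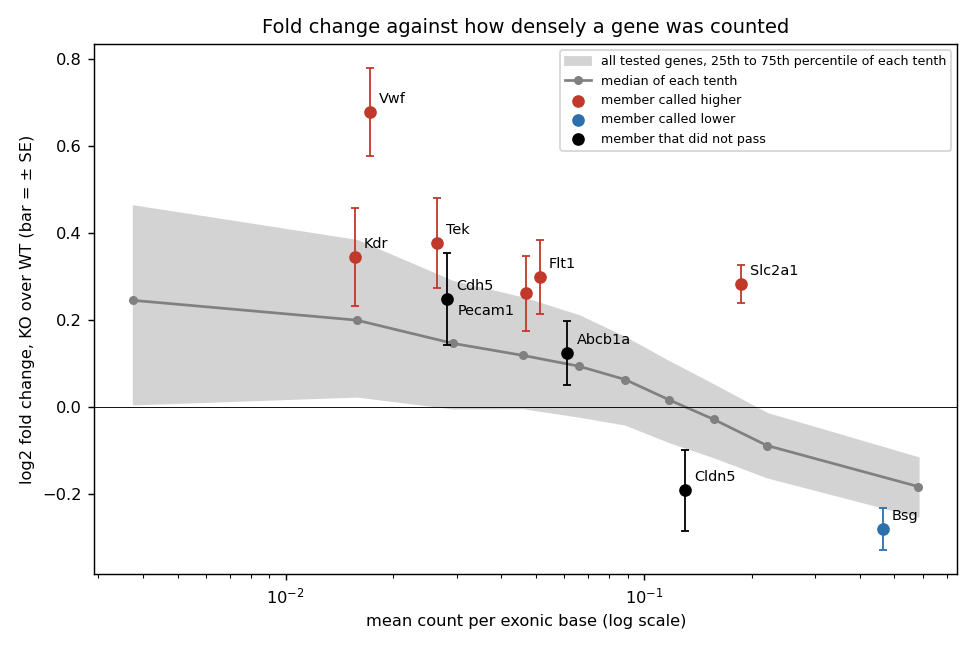
Log2 fold change (KO over WT, bars ± SE) of the 10 endothelial genes against their mean count per exonic base (log scale), with the median and the 25th to 75th percentile of all tested genes in 10 bins. Slc2a1, Vwf, Tek, Flt1 and Pecam1 lie above the grey band and Cldn5 and Bsg below it.

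With per-library offsets fitted to this trend, Slc2a1 and Vwf were still called higher, and no other member passed. How fully the offsets remove the trend was not tested. Slc2a1 had a log2 fold change of 0.34 (edgeR adjusted p = 6.21e-05) and Vwf of 0.51 (adjusted p = 0.00373), where 8.47% of all genes were called higher and 7.94% lower. Tek, Flt1, Kdr and Pecam1 had 0.23, 0.19, 0.17 and 0.14, with adjusted p of 0.164, 0.147, 0.279 and 0.281. Bsg was at -0.059 (adjusted p = 0.160). With these offsets 0 members were lower by edgeR, also at an unadjusted p under 0.05, while the DESeq2 Wald test without offsets called 1 lower, as edgeR did. Bsg and Cldn5 lay just above that line with offsets, at unadjusted edgeR p of 0.0508 and 0.0555, and Cldn5 was at -0.19. When the fit held the log2 of the library total beside the genotype, Slc2a1 alone passed (0.42, edgeR adjusted p = 0.00548), where 0.588% of all genes were called higher and 0.0771% lower. No member was lower in that fit by edgeR, also at an unadjusted p under 0.05. Vwf was then at 0.73 (adjusted p = 0.100) and Bsg at -0.072 (adjusted p = 0.577). Tek and Flt1 were at 0.40 and 0.42, and Kdr and Pecam1 both at 0.14. The SE of Vwf, Tek and Flt1 was 0.18, 0.19 and 0.15 in that fit, against 0.10, 0.10 and 0.08 without the total. Most KO libraries were deeper than the WT libraries, so this fit separates library total from genotype poorly.

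**Figure D3:**
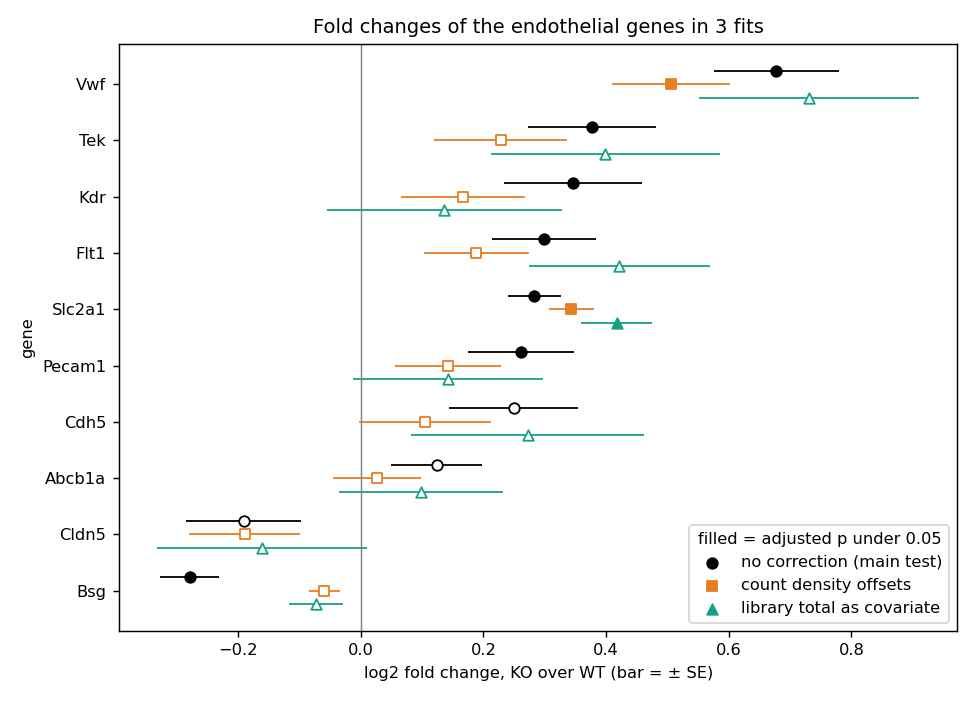
Log2 fold change (KO over WT, bars ± SE) of each endothelial gene in the test without correction, with count density offsets and with library totals as covariate. Filled symbols mark an adjusted p under 0.05. Slc2a1 is filled in all 3 fits and Vwf in the first 2, and Bsg moves from -0.28 to values near 0.

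KO 1 allows a view at matched depth, since its total of 4990643 counts lay inside the WT range. Its raw counts were above every WT count for 4 members. Slc2a1 had 664 counts in KO 1 against 471 to 547 in WT, Vwf 168 against 81 to 128, Flt1 361 against 246 to 323, and Tek 125 against 84 to 115. The counts of the other 6 members in KO 1 lay inside the WT range, as with Bsg at 703 in KO 1 against 695 to 782 in WT. Among all tested genes, 10.9% had a KO 1 count above every WT count. This is 1 mouse, so it carries no test.

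**Figure D4:**
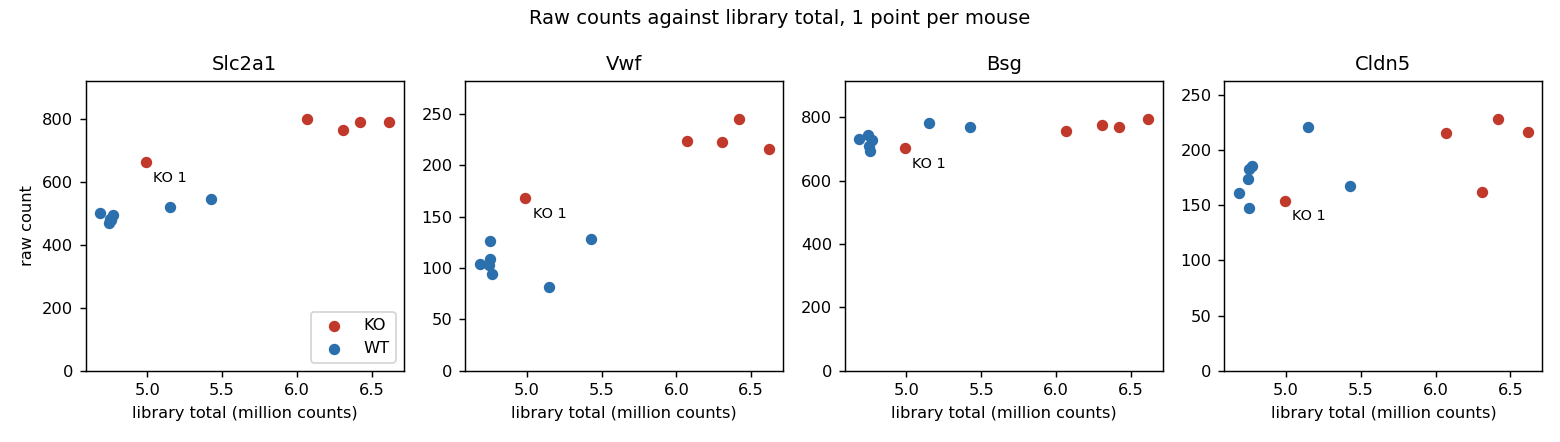
Raw counts of Slc2a1, Vwf, Bsg and Cldn5 against the library total, 1 point per mouse, with KO 1 labelled. KO 1 lies above the WT points for Slc2a1 and Vwf and among them for Bsg and Cldn5.

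Ratios of counts within a library are given for 2 pairs chosen after the values were seen. Each joins a member that rose with one whose fold change was negative, so the ratios restate those fold changes, and the members of a pair lie in different bins of count density. The count of Slc2a1 over that of Bsg was 0.945, 0.987, 0.997, 1.03 and 1.06 in KO 1, 2, 3, 4 and 6, against 0.634 to 0.711 in WT. The count of Vwf over that of Cldn5 was 1.00 to 1.37 in KO and 0.367 to 0.857 in WT. Neither ratio overlapped between the groups.

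The members did not all vary together between mice of 1 group. KO 6 had the highest level of its group in 5 members and KO 4 in 3, while KO 2 had the lowest in 4. In WT, WT 2 was lowest in 7 members and WT 6 highest in 5. Over the 12 libraries, after centring each group, the genes most like the mean of the 10 members were Palm2, Arhgap35, Slc25a32, Pcsk1 and Arid5b. Their Pearson r was 0.88 to 0.91 and their Spearman rho 0.78 to 0.91, and without WT 2 and WT 6, the libraries farthest from the median, r was 0.75 to 0.86. These correlations describe 12 libraries that share their scaling, and the 5 genes were picked as the highest of 12155.

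Further genes of the vessels were also measured. Of 128 other tested genes in the 9 vascular lists, 27 were higher (21.1%, against 15.3% of all genes tested) and 8 lower (6.25%, against 14.4%), with a median log2 fold change of 0.14. With density offsets 10 of the 128 were higher (7.81%, against 8.47% of all genes) and 4 lower (3.12%, against 7.94%), with a median of 0.058. Beside the library total edgeR called 0 higher and 0 lower (17 and 2 at an unadjusted p under 0.05). DESeq2 without corrections called 18 higher (14.1%) and 9 lower (7.03%), against 1697 higher and 2181 lower of all 14274 genes. Of 24 endothelial surface genes 4 rose (16.7%, near the 15.3% of all genes) and 1 fell (median 0.24). Nostrin, which binds endothelial nitric oxide synthase, rose to 8.12 ± 0.995 CPM in KO (SD, n = 5), against 4.84 ± 1.37 CPM in WT (SD, n = 7), a log2 fold change of 0.74 ± 0.18 (SE, edgeR adjusted p = 0.00637). The adhesion receptors Adgrl4 and Adgrf5 had log2 fold changes of 0.28 ± 0.08 and 0.29 ± 0.09 and also rose. Nostrin alone of these 24 passed with density offsets, at 0.57 and close to the threshold (edgeR adjusted p = 0.0484). Beside the library total it was at 0.76 and did not pass (edgeR adjusted p = 0.314).

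Of 20 transporters of the barrier, 6 were higher (30%, against 15.3% of all genes) and 1 lower (5%, against 14.4%), with a median of 0.10. Slc7a1, a cationic amino acid transporter, rose (log2 fold change 0.26 ± 0.05, SE). Tfrc, the transferrin receptor that takes up iron, fell to 154 ± 10.3 CPM in KO (SD, n = 5), against 188 ± 12.2 CPM in WT (SD, n = 7), a log2 fold change of -0.28 ± 0.05 (SE, edgeR adjusted p = 0.00172). Slc7a1 and Tfrc also passed with density offsets. Of 14 further genes of glucose and lactate uptake 3 fell (21.4%, against 14.4% of all genes). None of the 14 rose by edgeR, at an unadjusted p under 0.05 or with DESeq2. With density offsets 1 was higher, Slc2a3, the glucose carrier of neurons, named after its values were seen (0.14, edgeR adjusted p = 0.00328). Slc2a5, a fructose transporter of microglia, fell by 0.77 on the log2 scale (SE 0.20), and Nptn, a relative of basigin, by 0.33 (SE 0.06). The log2 fold change of Nptn was -0.082 with density offsets (edgeR adjusted p = 0.0437) and -0.073 beside the library total (adjusted p = 0.557). Hk1, a hexokinase, fell by 0.13, but its log2 fold change was 0.051 with density offsets and 0.015 beside the library total, and neither passed. Its call was also lost without any 1 of KO 2, 3, 4 or 6 or WT 1, 3, 5 or 6, at adjusted p up to 0.100.

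In the junction list 3 of 17 genes rose (17.6%, near the 15.3% of all genes) and 1 fell (5.88%, against 14.4%), with a median of 0.082. Marveld2 (tricellulin), a tight junction protein, rose to 2.97 ± 0.364 CPM in KO (SD, n = 5), against 1.30 ± 0.575 CPM in WT (SD, n = 7), a log2 fold change of 1.18 ± 0.25 (SE, edgeR adjusted p = 0.00321). Ctnnd1, the p120 catenin that binds cadherins, rose by 0.15 ± 0.04. Ctnnb1 (beta-catenin), which many cell types make, fell by 0.17 on the log2 scale, but was at 0.042 with density offsets and did not pass.

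For the receptors, the ligands were measured in the same libraries. Both angiopoietin genes tested rose: Angpt1, the activating ligand of Tie2, to 19.97 ± 2.25 CPM in KO (SD, n = 5), against 14.1 ± 2.85 CPM in WT (SD, n = 7), and Angpt2 to 2.98 ± 0.830 CPM in KO, against 1.81 ± 0.652 CPM in WT. Their log2 fold changes were 0.50 ± 0.13 and 0.71 ± 0.25 (SE, edgeR adjusted p = 0.00894 and 0.0421), and neither passed with density offsets. The call of Angpt2 was lost without any 1 of KO 4 or 6 or WT 1, 2, 3, 6 or 7, at adjusted p up to 0.139, and also with DESeq2 (adjusted p = 0.0898), without a filter on low counts (0.0540) and with cyclic loess (0.155). Vegfa, named here after its values were seen as the shared ligand of Flt1 and Kdr, was at 99.1 ± 6.43 CPM in KO and 108 ± 7.11 CPM in WT and did not pass (edgeR adjusted p = 0.0986). Of 9 further receptors and partners, 1 rose (11.1%, against 15.3% of all genes), the phospholipase Plcg1 that acts below Kdr (0.18 ± 0.05).

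The Wnt pathway of the barrier, through which neural cells instruct endothelial cells to form it, had 8 of 14 genes higher and none lower by edgeR, at an unadjusted p under 0.05 or with DESeq2, which called 7 higher (median 0.28). The 8 are 57.1% of the list, against 15.3% of all genes called higher. This list too was chosen with earlier results of these data known, so its share is not independent of the data. Apcdd1, a Wnt inhibitor, rose to 43.1 ± 3.19 CPM in KO (SD, n = 5), against 34.1 ± 2.29 CPM in WT (SD, n = 7), a log2 fold change of 0.34 ± 0.06 (SE, edgeR adjusted p = 0.00150). Adgra2, a co-receptor for Wnt7, rose by 0.46 ± 0.10, and the transcription factor Sox17 by 0.79 ± 0.19. With density offsets, where 8.47% of all genes were higher, 2 of the 14 passed, Apcdd1 and Adgra2, and Sox17 was at 0.59 (adjusted p = 0.0539). Among 20 endothelial transcription factors, of which Lef1 and Sox17 are also in the Wnt list, 4 rose and 2 fell (20% and 10%, against 15.3% and 14.4% of all genes). Lef1 was at 0.44 ± 0.12 and Lyl1 at -0.69 ± 0.17. With density offsets none of the 20 was higher and 1 was lower, Lyl1, at -0.89 (edgeR adjusted p = 0.00428), and Lef1 was at 0.25 (adjusted p = 0.152). Of 9 genes of haemostasis tested beside Vwf, 2 rose (22.2%, against 15.3% of all genes), and none passed with density offsets. Among the 2 was Plat, the tissue plasminogen activator (0.18 ± 0.06). Leaving out 1 library ended the call of Plat in 8 of 12 fits (all but KO 3 and WT 2, 4 and 6).

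**Figure D5:**
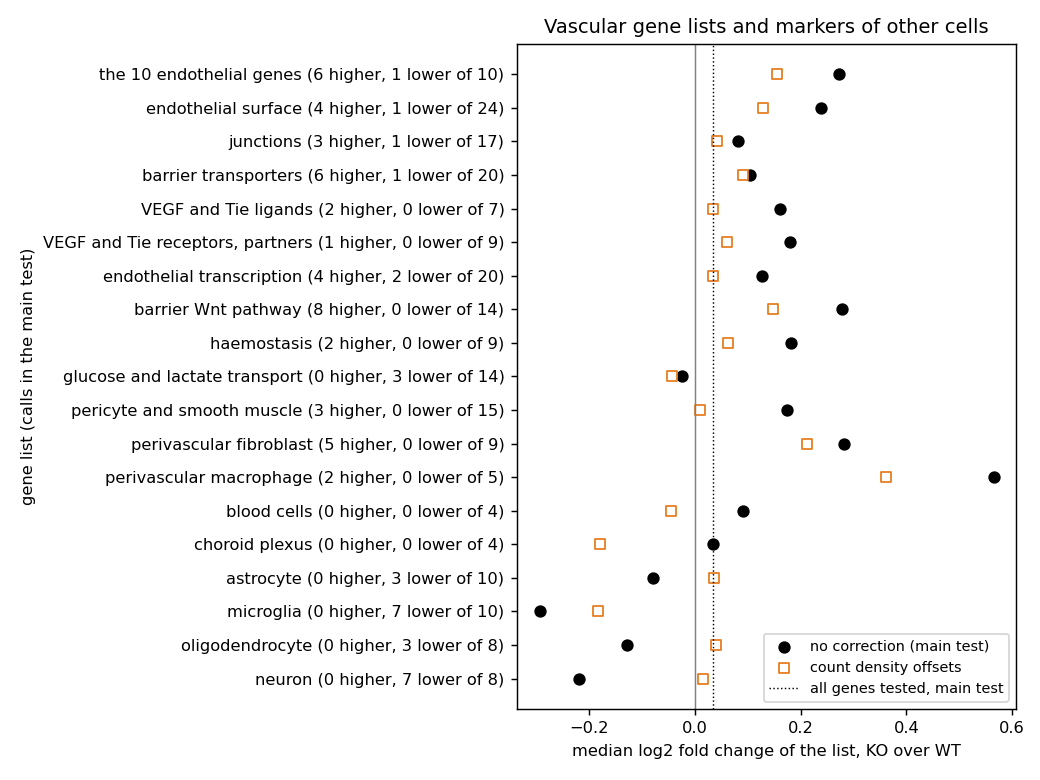
Median log2 fold change (KO over WT) of the 10 endothelial genes, 9 vascular lists and markers of 9 other cell types, without correction (filled) and with count density offsets (open squares), with the counts of genes called beside each name. The dotted line is the median of all tested genes, 0.034. The endothelial and perivascular lists lie to the right of it without correction, and neurons and microglia to the left.

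Markers of other cells at or near the vessels were read in the same way. The shares below stand against 15.3% of all genes tested called higher and 14.4% called lower. Of 9 genes of perivascular fibroblasts 5 rose (55.6%, median 0.28), and the summed level of the list was 303 to 381 CPM in KO and 220 to 297 CPM in WT. Pdgfra, named after its values were seen, rose and was the largest part of these sums, at a mean of 115 CPM in KO and 94.9 CPM in WT. Which cells of the bulk tissue made it was not measured. Of 15 genes of pericytes and smooth muscle 3 rose (20%, median 0.17), with sums of 402 to 428 CPM in KO and 348 to 412 CPM in WT. Of 5 tested genes of perivascular macrophages 2 rose (40%), with sums of 25.9 to 34.9 CPM in KO and 16.2 to 27.1 CPM in WT. Of 10 genes of microglia 7 fell (70%), with sums of 602 to 647 CPM in KO and 672 to 824 CPM in WT. Of 8 genes of neurons 7 fell (87.5%), with sums of 2099 to 2545 CPM in KO and 2443 to 2692 CPM in WT. Of 10 astrocyte genes 3 fell (30%), with sums of 2431 to 2879 CPM in KO and 2612 to 3154 CPM in WT, and of 8 oligodendrocyte genes 3 fell (37.5%). With density offsets, 8.47% of all genes were higher and 7.94% lower. In that fit 1 gene of pericytes and smooth muscle was higher and 1 lower (median 0.0090), and 4 microglial genes still fell. The 2 pericyte list genes, named after their values were seen, were Cspg4 (0.34, edgeR adjusted p = 0.0116) and Kcnj8 (-0.51, adjusted p = 0.0393). Which cells made them was not measured either. Of the perivascular fibroblast genes 1 was higher, and none of the macrophage genes passed. The neuronal calls were gone with density offsets, where none of the 8 passed and the median was 0.015. The sums of 4 tested blood cell markers overlapped, at 32.4 to 41.1 CPM in KO and 33.0 to 40.2 CPM in WT. Gp1bb, at a mean of 22.2 CPM in KO and 24.9 CPM in WT, made up most of them. The 4 went both ways: Itga2b had a log2 fold change of 0.48, Alas2 of 0.36, Gp1bb of -0.18 and S100a9 of -0.33. None passed by edgeR or DESeq2, and Itga2b was higher at an unadjusted p under 0.05. The haemoglobin genes are not among the genes analysed here. The part of these other cells in the changes of the 10 members was not tested.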

How the data were processed

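RNA was extracted from frontal cortex with Trizol and a column kit and made into libraries with Illumina protocols, per the labels' protocols. The authors deposited raw counts, 1 whole number for each gene in each library. The submitters' processing notes name STAR and mm10. Which counter was run, with which strand setting and treatment of duplicate reads, was not given in the sources used here. Titles gave groups and mouse numbers, and replicates were taken as mice from these titles.

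The test was the quasi-likelihood fit of edgeR 4.0.16 (R 4.3.3) on group over all 12 libraries, after filterByExpr and TMM scaling, with Benjamini-Hochberg adjustment at 0.05 over 14274 genes. SE is the log2 fold change divided by the root of its F statistic. CPM uses TMM-scaled totals. Exonic lengths came from the GENCODE M21 transcripts paired with each gene (14857 of 14909 genes). Density offsets are a lowess trend (span 0.3), for each library, on the log2 count per exonic base. The trend is of the log2 CPM minus the gene's mean log2 CPM over all libraries. The fit and the offsets were also run on simulated counts. Those counts held no trend on count density, so that run cannot show whether the offsets remove one. Alternatives included DESeq2 1.42.0, limma 3.58.1 with voom and with cyclic loess, other factors and filters, and left-out libraries. Summing WT 6 and WT 7 and the motifs searched were chosen after seeing the data.

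The members and lists were chosen with earlier results of these data known. Named genes are the members, Upf3b, up to 3 passing genes of each vascular list by smallest p, and the 5 genes most like the members' mean. No list test was made. Counting error limits low genes such as Marveld2 and Lyl1. A few genes chosen this way are not reported here.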

Additional observations from a re-analysis of the deposited data

Results flagged for a closer look

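Values of the 10 members and Upf3b were looked at in both groups for a mouse far from the others of its group, 22 sets in all, and 1 was found. Bsg in KO 1 was at 143.8 CPM, while the other 4 KO mice were at 118 to 125 CPM. Its gap to the nearest of them was 0.73 of the range of the group. Such a gap is expected by chance in about 1 in 20 sets. KO 1 was also the KO library with the lowest total, 4990643 counts, against 6068895 to 6617759 in the other 4, and the part of depth in the level of Bsg in KO 1 was not tested. Without KO 1 the log2 fold change of Bsg was -0.33, against -0.28 with it.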

How the results depend on the processing

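The log2 fold changes of all 10 members kept their direction under all 25 other settings. Slc2a1 passed in all 25, and Vwf in 24, the exception being the library total as a covariate. The count of 6 members higher became 2 with count density offsets, 1 with the library total as a covariate and 3 with cyclic loess, where Vwf, Slc2a1 and Flt1 passed. The 1 member lower, Bsg, was lost with density offsets (0 lower) and with the covariate (0 lower). The cause was not tested. Leaving out 1 library gave 4 to 7 members higher and 1 to 1 lower, 1585 to 2420 genes higher and 1544 to 2467 genes lower, and -3.92 to -3.64 for Upf3b. Without both KO 2 and WT 4, 7 members were higher, Cdh5 included (0.32, edgeR adjusted p = 0.0257). Over all genes, 1205 were higher and 1130 lower with density offsets, and 84 and 11 with the covariate, of which 88.4% were higher, against 51.6% without it. The mouse numbers did not pair the libraries: deviations of KO and WT mice with the same number correlated at -0.37 to 0.14. With the mouse number as a replicate block 1129 genes were higher and 1186 lower, and 5 members higher, Pecam1 being lost (adjusted p = 0.119). Ctnnb1 turned to 0.042 with density offsets, and Hk1 to 0.051 with density offsets and 0.015 with the covariate. Kdr, with 92.3 counts per library on average, is limited more by counting error than Bsg, with 746.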
